A study of Mus musculus with 6 samples.

Results

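Long intergenic non-coding RNAs (lincRNAs) of mouse kidney were read from 6 RNA sequencing libraries. A gene was counted as expressed when GENCODE M21 gave it the type lincRNA, when at least 1 row of the deposited count tables could be assigned to its exons by position, and when it had at least 10 counts in 3 or more libraries. Gm42418, a ribosomal RNA repeat, was left out. Of 5854 lincRNA genes in the annotation, 993 could be read, and 84 of these met the limit; 493 had 0 counts in every library, and 415 had counts below the limit. The 84 were part of 9520 genes read by position in all. The kidneys were of C57BL/6 mice at postnatal day 21. Of the libraries, 3 carried the diagnosis healthy (titled control) and 3 the diagnosis acute renal failure (titled treat), a rapid loss of kidney function. No genotype, agent or way of inducing renal failure was given in the labels, and both groups shared strain, age, tissue and library kit. The labels did not say if the libraries of 1 group were of different animals, and p-values then cover no more than the spread among these 6 libraries.

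LincRNAs are long transcripts that lie between protein-coding genes, are mostly spliced and polyadenylated, and carry no long reading frame. Some, such as Malat1, stay in the nucleus at very high levels, others carry small nucleolar RNAs or microRNAs in their introns and exons, and many are expressed at low levels in few cell types. In the kidney, as in other tissues, the level of a lincRNA in bulk RNA depends both on the cells present and on the RNA per cell, and fewer cells of a type cannot be told apart from less RNA per cell.

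Row names in the deposited count tables often belonged to another gene than the exons the row covered. Each lincRNA was therefore read by position, mostly through part of its exons, and 14 were read through a row of their own name. A median of 471 exon bases per lincRNA was counted, with a range from 44 to 4729, or 30.3% of the exon bases in the median. Rows also held other bases: between 0.329% and 100% of a row's bases lay on the lincRNA's exons, with a median of 15.4%. The rows of 34 lincRNAs touched no other annotated exon and no protein-coding gene body, while 36 had rows that touched another annotated exon and 37 rows that touched a protein-coding gene body. Strand was ignored in counting, so reads of these other genes can be included. Levels of different lincRNAs are given per kilobase of counted exon, in CPM (counts scaled to the library total) per kb. The CPM is that of the whole row, so reads from the rest of the row raise this value. For 4932412D23Rik, 330 of 30730 row bases lay on its exons, against 3020 of 9069 for Malat1. An order by CPM per kb is therefore a description and does not make lincRNAs fully comparable. The lincRNAs named for their level were chosen by mean CPM.

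The healthy libraries held 5710010, 2873370 and 3630813 counts and the acute renal failure libraries 5455886, 5525366 and 6191479. The 84 lincRNAs took 0.846% to 1.33% of these counts, and 0.181% to 0.250% without Malat1. Healthy replicate 3 stood apart in the ribosomal repeat Gm42418, with 20721 counts against 751 to 1145 in the other libraries. Markers of kidney epithelium were present in every library. All 7 collecting duct markers read were higher in acute renal failure, with a summed level of 13268 to 15749 CPM against 4080 to 4831 CPM in healthy libraries. Of 5 proximal tubule markers, 4 were lower. The summed level of 2 neutrophil markers was 46.6 to 155 CPM in healthy libraries and 3.08 to 6.95 CPM in acute renal failure. That of 4 macrophage markers was 43.1 to 79.7 CPM against 20.8 to 26.2 CPM, and that of 3 endothelial markers 158 to 285 CPM against 103 to 110 CPM. Of 3 erythroid markers read, Hbb-bt was at 0 in all libraries, and the summed level was 163 to 789 CPM against 28.8 to 78.9 CPM. All 5 immediate early genes read, including Fos and Junb, were lower in acute renal failure, with a summed level of 337 to 690 CPM against 2475 to 3266 CPM. These differences run with every lincRNA result below, and their part in it was not tested.

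About as many lincRNAs were higher as lower in acute renal failure. Of the 84, 82 entered the test (edgeR's quasi-likelihood test over 5246 genes, Benjamini-Hochberg adjusted p under 0.05), and Gm26660 and Gm40153 did not pass its filter on low counts. Among the 82, 18 were higher and 18 lower, or 43.9% in either direction. Over all genes tested the share called was 50.0%, with 25.1% higher and 24.9% lower. The share among lincRNAs was near this background and is no result about lincRNAs as a class. The libraries of both groups did not overlap for 48 of the 82 (58.5%), against 62.4% of all genes. Differences of at least 2-fold were called higher for 15 and lower for 17 of the 82 lincRNAs. Over all genes these were 599 and 710 of 5246 (11.4% and 13.5%). Both shares were larger among lincRNAs, and whether they differ from those of all genes was not tested. The median log2 fold change (acute renal failure minus healthy) was 0.04 for the lincRNAs and 0.01 for all genes. The median size of the log2 fold change without its sign was 0.92 for lincRNAs and 0.53 for all genes. Beside this, the median level was 4.67 CPM over a median of 471 counted bases for lincRNAs and 33.4 CPM over 418 counted bases for all genes. Other long non-coding types (antisense, processed transcript, sense intronic and the like) gave 30 higher and 24 lower of 135, a share of 40.0%, with a median log2 fold change of 0.14.

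**Figure D1:**
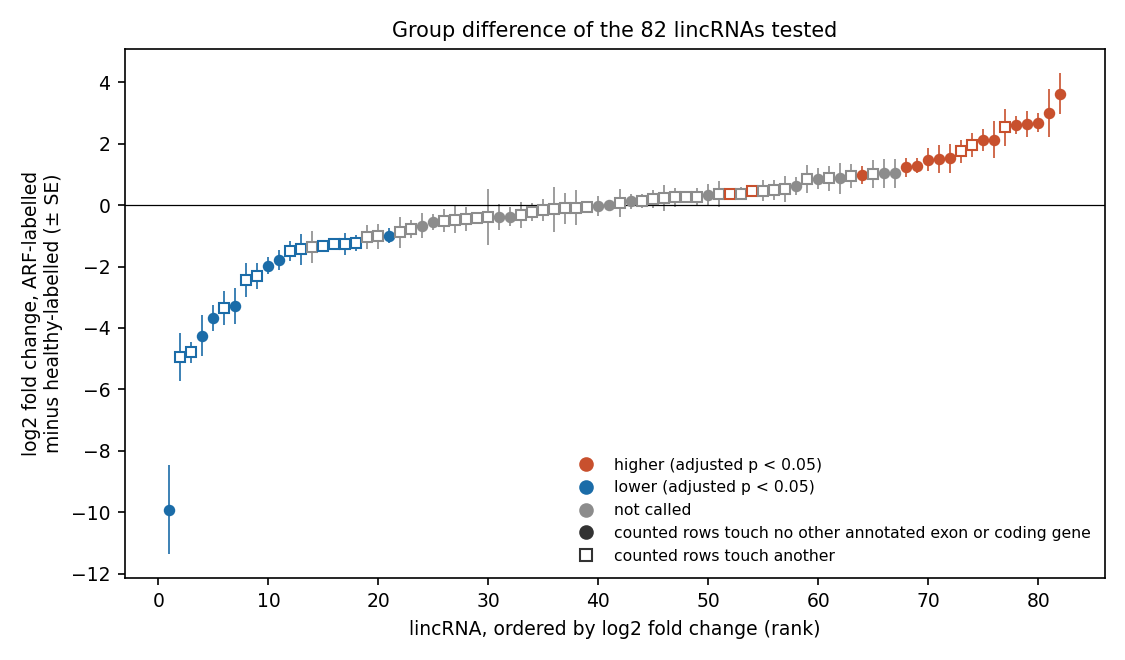
Log2 fold change (acute renal failure, ARF, minus healthy, y axis, bars ± SE) of the 82 tested lincRNAs in rank order (x axis), coloured by call; filled circles are lincRNAs whose rows touch no other annotated exon or coding gene body, open squares the others. Calls lie at both ends, with 18 lower and 18 higher, and Gm12505 stands at -9.91 with no count in any ARF library.

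Many lincRNAs met the expression limit through 1 group, so that a call in the other direction was unlikely from the start. In 33 of the 84, all 6 libraries had at least 10 counts, and of these 5 were higher and 8 lower (39.4% called, against 51.1% of all tested genes of this class). Another 29 had 10 counts in all acute renal failure libraries but not in all healthy ones, with 13 higher and 0 lower (44.8% called, against 40.6% of all tested genes of this class). A further 15 had them in all healthy libraries only, with 0 higher and 10 lower (66.7% called, against 78.75%). Of the last 7, 5 were tested and 0 were called (against 2.47% of all tested genes of this class). The counts of the latter classes follow from how the genes were chosen and are not read as results. Rows that touched no other annotated exon or coding gene body belonged to 33 tested lincRNAs, of which 13 were higher and 7 lower (60.6% called, against 51.8% of all tested genes with such rows). The other 49 had 5 higher and 11 lower (32.7% called, against 47.1% of all tested genes with rows of that kind). Whether these shares differ was not tested. Without healthy replicate 3, 14 lincRNAs were higher and 16 lower.

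Malat1, a long nuclear RNA associated with nuclear speckles, was the lincRNA with the highest level per counted kilobase at 3080 CPM per kb (mean of 6 libraries). It spans chr19:5795690-5802672 (minus strand, GRCm38) and was read through 3020 exon bases in a row named Ltbp3. Its CPM in the healthy libraries was 8483, 10853 and 11002, and in acute renal failure 10209.7, 6259.9 and 8996. The groups overlapped: acute renal failure replicate 2 was the lowest of all 6, and replicate 1 lay above healthy replicate 1. The log2 fold change was -0.43 (SE 0.19, adjusted p = 0.0914), which did not pass the test. With DESeq2 in place of edgeR it passed, at -0.44 (adjusted p = 0.0437).

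Rmrp, the RNA subunit of the ribonuclease MRP that processes ribosomal and mitochondrial RNA, was next at 885 CPM per kb. It lies at chr4:43492783-43493063 (minus strand), where GENCODE also has a ribozyme entry and an exon of Ccdc107 on the other strand. Healthy libraries had 289, 465 and 303 CPM and acute renal failure libraries 211, 184 and 40.4 CPM. All acute renal failure libraries lay below all healthy ones, and replicate 3 lay far below the other two. Rmrp was lower by the test (log2 fold change -1.44, SE 0.51, adjusted p = 0.0417). This call was lost without any single healthy library (adjusted p from 0.0613 to 0.104), without acute renal failure replicate 2 (0.0599), with scaling by total count (0.0626) and in DESeq2 (0.0690).

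2900097C17Rik, the mouse gene of the cytoplasmic RNA Norad, which binds Pumilio proteins, had 368 CPM per kb. Its healthy libraries had 237, 356 and 329 CPM and its acute renal failure libraries 416, 316 and 306 CPM, which overlapped. The log2 fold change was 0.00 (SE 0.18, adjusted p = 0.998), with no stable sign across settings. 1700020I14Rik, the mouse gene of Cyrano, an RNA that pairs with miR-7, had 201 CPM per kb. It measured 320, 489 and 445 CPM in healthy libraries and 689, 475 and 537 CPM in acute renal failure, and its log2 fold change of 0.27 (SE 0.19, adjusted p = 0.258) did not pass the test. These groups overlapped as well.

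Tmem250-ps, which RefSeq lists as protein-coding, had 226 CPM per kb. Its level was 278, 303 and 313 CPM in healthy libraries and 408, 433 and 460.3 CPM in acute renal failure, with no overlap and little spread. It was higher by a log2 fold change of 0.37 (SE 0.11, adjusted p = 0.0203). The call was lost without healthy replicate 1 (adjusted p = 0.0552) and without acute renal failure replicate 3 (0.0513). 4932412D23Rik (172 CPM per kb) was also higher, at 48.3, 37.6 and 46.8 CPM against 61.2, 82 and 64 CPM. Its log2 fold change was 0.46 (SE 0.17, adjusted p = 0.0489), and 1.07% of its row's bases lay on its exons while the row ran through the body of Zbtb20 on the other strand. That call was lost without healthy replicate 1, 2 or 3 and without acute renal failure replicate 2 or 3 (adjusted p from 0.0528 to 0.150). It was also lost in DESeq2 (0.0521), with DESeq2 size factors in edgeR (0.0529), with a minimum of 100 counted exon bases (0.0570) and with a mean count of at least 10 (0.0515). Zbtb20 itself, a transcription factor gene, did not pass the test (-0.37, adjusted p = 0.0818).

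Gm12678, at chr4:44943753-44948330 (plus strand) and read over all of its 692 exon bases, was lower. It had 45.7, 33.1 and 56.5 CPM in healthy libraries and 34.8, 21.7 and 20.7 CPM in acute renal failure. Healthy replicate 2 lay below acute renal failure replicate 1, so the groups overlapped, and the log2 fold change was -0.99 (SE 0.25, adjusted p = 0.0113). Snhg18, a host of the small nucleolar RNA Snord123, had 61.8, 81.8 and 62.5 CPM against 72.6, 130.7 and 95.5 CPM. Its log2 fold change of 0.37 (SE 0.22, adjusted p = 0.191) did not pass the test, and it passed without acute renal failure replicate 1 (0.57, adjusted p = 0.0435). Gm28875 measured 27.8 to 39.7 CPM in healthy libraries and 15.3 to 47.3 CPM in acute renal failure, with a log2 fold change of -0.16 (SE 0.36, adjusted p = 0.741). It turned to 0.20 without acute renal failure replicate 3.

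Gm41442 (chr16:31233590-31248313, plus strand) was read through rows that did not move together. Its summed level was 84.2 to 92.5 CPM in healthy and 90.2 to 99.5 CPM in acute renal failure libraries, with a log2 fold change of -0.08 (SE 0.10, adjusted p = 0.559). The row with 554 of its exon bases, which also runs over the gene body of Ppp1r2, had 71.1 ± 3.12 CPM in healthy and 84.5 ± 3.68 CPM in acute renal failure libraries (SD, n = 3). The row with 1620 of its exon bases, on no other annotated gene, had 16.6 ± 5.27 and 9.29 ± 4.13 CPM. Where that second row alone was used, Gm41442 was lower, with a log2 fold change of -1.01 against healthy (adjusted p = 0.0450).

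**Figure D2:**
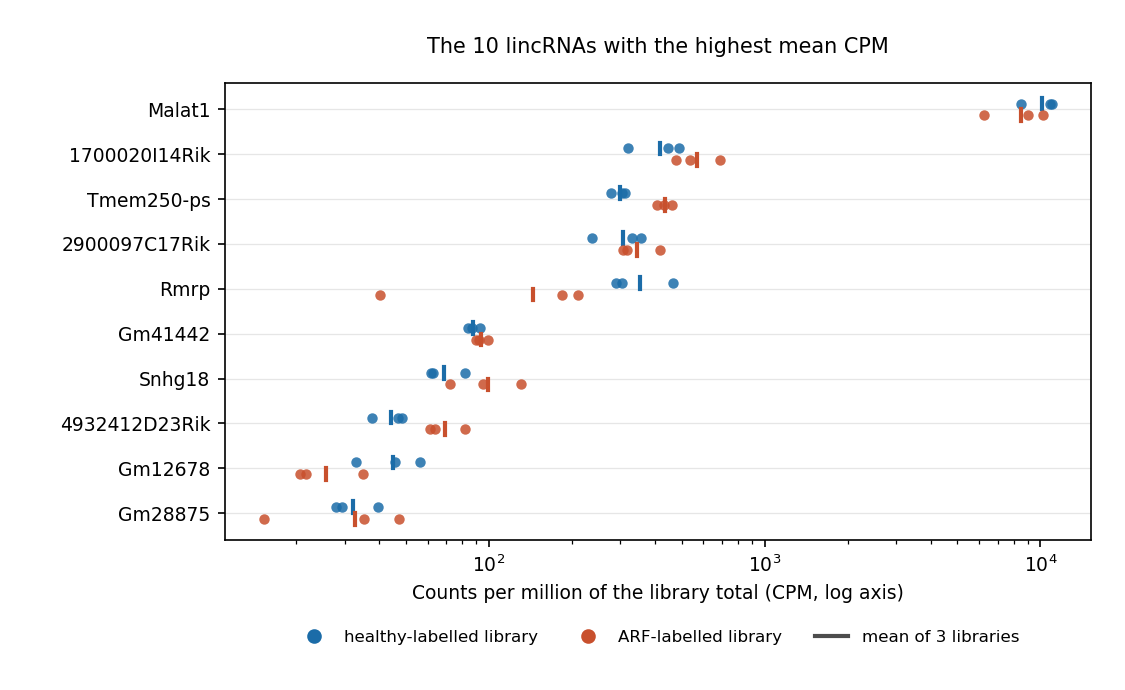
CPM on a log axis (x) of the 10 lincRNAs with the highest mean CPM (y), with 1 point per library, healthy and acute renal failure (ARF) in separate colours, and a bar at each mean. Rmrp lies lower and Tmem250-ps and 4932412D23Rik lie higher in all ARF libraries, while the groups of Malat1, 2900097C17Rik and 1700020I14Rik overlap.

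Among lincRNAs lower in acute renal failure, Gm12505 had the largest difference. It spans chr4:55410443-55418842 (minus strand), and all of its 757 exon bases were counted in a row of its own that touched no other annotated gene. It had 91, 19 and 166 counts in healthy libraries, which is 15.9, 6.61 and 45.7 CPM, and 0 counts in each acute renal failure library. Against the limit that a count of 0 allows (3 counts over the group), it was at least 129-fold lower, a limit that covers counting error only. Healthy replicate 3 held most of the counts, and without it the limit was 73.4-fold. The fitted log2 fold change of -9.91 (SE 1.44, adjusted p = 0.00170) depends on the prior count of the fit and is no bound. It was -9.05 without healthy replicate 3, the library with the most counts. The median log2 fold change of the 82 lincRNAs is the same with Gm12505 at its bound, since it stays the lowest.

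Zfp469 had the lowest adjusted p of the 82. It lies at chr8:122269569-122272650 (plus strand), inside the gene body of Gm20388, and RefSeq lists it as protein-coding (a zinc finger protein gene linked to collagen in the cornea), so its type rests on GENCODE M21. Healthy libraries had 35, 55.7 and 32.8 CPM and acute renal failure libraries 2.38, 0.724 and 1.78 CPM, with a wide gap between them. The log2 fold change was -4.80 (SE 0.35, adjusted p = 2.63e-05). Each of its 3 rows gave the same picture: 24.3, 9.67 and 7.15 CPM in the healthy mean against 0.863, 0.351 and 0.413 CPM in the acute renal failure mean.

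A530046M15Rik and Gm32461 were also lower. They are shown together because, of 8 lincRNAs called lower with a promoter window, these 2 hold the AP-1 recognition sequence before their start. AP-1 is a transcription factor, the dimer of Fos and Jun proteins. Both were thus chosen for the match, and a link of AP-1 to either fall was not tested. A530046M15Rik (chr13:15807243-15827537, plus strand) had 3.33, 10.8 and 12.7 CPM in healthy libraries and 0.183, 0 and 0.646 CPM in acute renal failure. Its log2 fold change was -4.95 (SE 0.79, adjusted p = 0.00113), and -6.33 without acute renal failure replicate 3. Only 48 bases of its exons were counted, or 0.501% of a row that also runs into Gli3. More of that row lies on other exons, with 147 bases of A530058O07Rik and 206 of the pseudogene B230303A05Rik. Reads of these genes can therefore be part of the fall. Gm32461 (chr16:86770227-86806513, minus strand) had 12.6, 5.92 and 7.99 CPM against 1.65, 0.181 and 1.13 CPM. The log2 fold change came to -3.34 (SE 0.55, adjusted p = 0.00130). Its 136 counted bases were 3.12% of its row, which also touches 30 exon bases of the pseudogene Gm49572. Whether either fall is that of the lincRNA itself was not tested. The promoter windows of both, and for comparison that of Gm12505, are shown from RefSeq (GRCm38.p6), from 250 bases before to 50 bases after the start, on the gene's strand. Capitals mark matches to TGANTCA, the AP-1 site, which reads the same on both strands. The windows lie at chr13:15806993-15807292 (plus), chr16:86806464-86806763 (minus) and chr4:55418793-55419092 (minus).
A530046M15Rik: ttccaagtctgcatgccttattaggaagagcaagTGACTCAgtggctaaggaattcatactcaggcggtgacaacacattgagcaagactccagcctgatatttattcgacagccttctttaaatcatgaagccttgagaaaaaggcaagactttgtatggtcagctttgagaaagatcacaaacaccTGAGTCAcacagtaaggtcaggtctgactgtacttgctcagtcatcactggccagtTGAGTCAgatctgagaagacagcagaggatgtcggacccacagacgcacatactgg
Gm32461: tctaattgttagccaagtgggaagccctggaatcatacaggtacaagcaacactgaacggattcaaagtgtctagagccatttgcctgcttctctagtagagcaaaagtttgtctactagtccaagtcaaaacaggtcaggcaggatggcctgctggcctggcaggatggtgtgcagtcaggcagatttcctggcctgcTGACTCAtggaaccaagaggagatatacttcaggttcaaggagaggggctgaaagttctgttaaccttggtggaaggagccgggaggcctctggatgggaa
Gm12505: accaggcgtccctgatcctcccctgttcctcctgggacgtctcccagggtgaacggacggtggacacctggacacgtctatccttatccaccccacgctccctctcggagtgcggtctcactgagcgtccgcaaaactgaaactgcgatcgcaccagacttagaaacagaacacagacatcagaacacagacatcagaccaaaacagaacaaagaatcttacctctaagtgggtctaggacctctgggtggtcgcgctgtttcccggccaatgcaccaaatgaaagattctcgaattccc
The window of A530046M15Rik holds 3 matches, at positions 216, 62 and 6 bases before the start, that of Gm32461 holds 1, at 51 bases before it, and that of Gm12505 holds 0. Of all 32817 promoter windows of this length, 7.81% hold at least 1 match. A promoter window was at hand for 41 of the 84 lincRNAs, of which 5 hold a match: 2 of 8 called lower, 1 of 10 called higher (Gm13652, in 1 of its several starts) and 2 not called. Other motifs searched on both strands were the cyclic AMP response element TGACGTCA (1.79% of all windows, 2 of the 41), the E-box CACGTG (7.15%, 4 of 41) and the TATA box TATAAA (13.6%, 2 of 41). The shares over all are per window, while a lincRNA counts if any of its windows holds a match, so they are not directly comparable. A match is a description of the letters and not a measured site.

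A further 6 lincRNAs make up the 10 largest falls. Gm45924, which RefSeq also names Borg, is known from bone morphogenetic protein signalling and had 4.20, 6.26 and 2.75 CPM in healthy libraries against 0, 0.181 and 0.485 CPM. Its log2 fold change was -4.25 (SE 0.66, adjusted p = 0.00101), and -5.34 without acute renal failure replicate 3. 1200007C13Rik had nearly equal healthy libraries, at 5.08, 6.26 and 5.51 CPM against 0.550, 0.181 and 0.646 CPM in acute renal failure, with a log2 fold change of -3.69 (SE 0.42, adjusted p = 0.000209). AC122252.2 (-3.28), 4930567H12Rik (-2.44), Gm11707 (-2.31) and Gm17767 (-1.98) completed the list, with adjusted p from 0.000529 to 0.00615. Without acute renal failure replicate 3, AC122252.2 came to -3.88 and 4930567H12Rik to -3.30. Gm17767 had the most counts of these, at 15.2, 27.5 and 28.1 CPM against 5.68, 6.52 and 7.75 CPM. In all 10, every acute renal failure library lay below every healthy one, which the rule for naming them required. Of these 10, 9 had at least 10 counts in all healthy libraries only, Gm17767 being the exception.

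Among the rises, Gm13652 and A330043C09Rik had the lowest adjusted p, and they lie side by side. Gm13652 (chr2:75124871-75137798) and A330043C09Rik (chr2:75147118-75177658) are both on the minus strand. Gm13652 had 3.85, 2.44 and 1.65 CPM in healthy libraries and 18.0, 20.8 and 18.9 CPM in acute renal failure. The log2 fold change came to 2.61 (SE 0.30, adjusted p = 0.000202). A330043C09Rik had 1.05, 1.74 and 1.10 CPM against 8.98, 10.1 and 8.40 CPM, with a log2 fold change of 2.68 (SE 0.32, adjusted p = 0.000239). The acute renal failure libraries of both sat close together, far above the healthy ones. A330043C09Rik was read through 872 exon bases, 86.4% of its exons and 10.9% of its row's bases. Gm13652 was read through 108, or 9.36% of its row's bases. Each level is that of the whole row, so reads from the rest of the row are included. The 108 bases, chr2:75133462-75133569 on the minus strand (GENCODE M21 transcript sequence, GRCm38), are all of Gm13652's exons that the row covers. They are shown for that reason, with no part capitalised.
Gm13652: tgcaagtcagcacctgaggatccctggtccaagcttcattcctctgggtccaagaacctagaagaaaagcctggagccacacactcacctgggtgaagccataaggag

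A second pair of rising lincRNAs overlaps on opposite strands. Gm34093 (chr15:36375343-36390172, minus strand) had 1, 4 and 0 counts in healthy libraries and 13, 23 and 33 in acute renal failure. Gm34150 (chr15:36375049-36376090, plus strand) had 6, 0 and 2 counts against 15, 25 and 34. Their log2 fold changes were 2.99 (SE 0.78, adjusted p = 0.0124) and 2.53 (SE 0.61, adjusted p = 0.00905). Since counting ignored strand and part of an exon of Gm34093 lies in the row of Gm34150, the pair is not independent. Gm34093 reached 4.76 without healthy replicate 2 and missed the threshold without healthy replicate 1 (adjusted p = 0.0553), and Gm34150 reached 3.53 without healthy replicate 1.

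Gm35576 had the largest rise, from 4, 0 and 1 counts in healthy libraries to 17, 35 and 50 in acute renal failure. The difference was 3.62 on the log2 scale (SE 0.67, adjusted p = 0.00239), and 4.88 without healthy replicate 1. AI838599 was read over all 2953 exon bases in a row of its own, with 2.10, 4.87 and 1.65 CPM against 11.9, 15.2 and 12.9 CPM. It was higher by a log2 fold change of 2.11 (SE 0.37, adjusted p = 0.00174). AC132455.2 (2.64), Gm12866 (2.13), 3222401L13Rik (1.95) and AC154218.2 (1.75) were higher too, with adjusted p from 0.00118 to 0.0166. The row of 3222401L13Rik lies in the protocadherin gene cluster on chromosome 18 and that of AC154218.2 touches exons of Lpin2. Gm12866, with 1, 1 and 4 counts against 17, 13 and 14, moved to 3.13 without healthy replicate 3. It missed the threshold without healthy replicate 1 (adjusted p = 0.0637) or acute renal failure replicate 1 (0.0529). All 10 had 10 counts in every acute renal failure library and not in every healthy one.

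**Figure D3:**
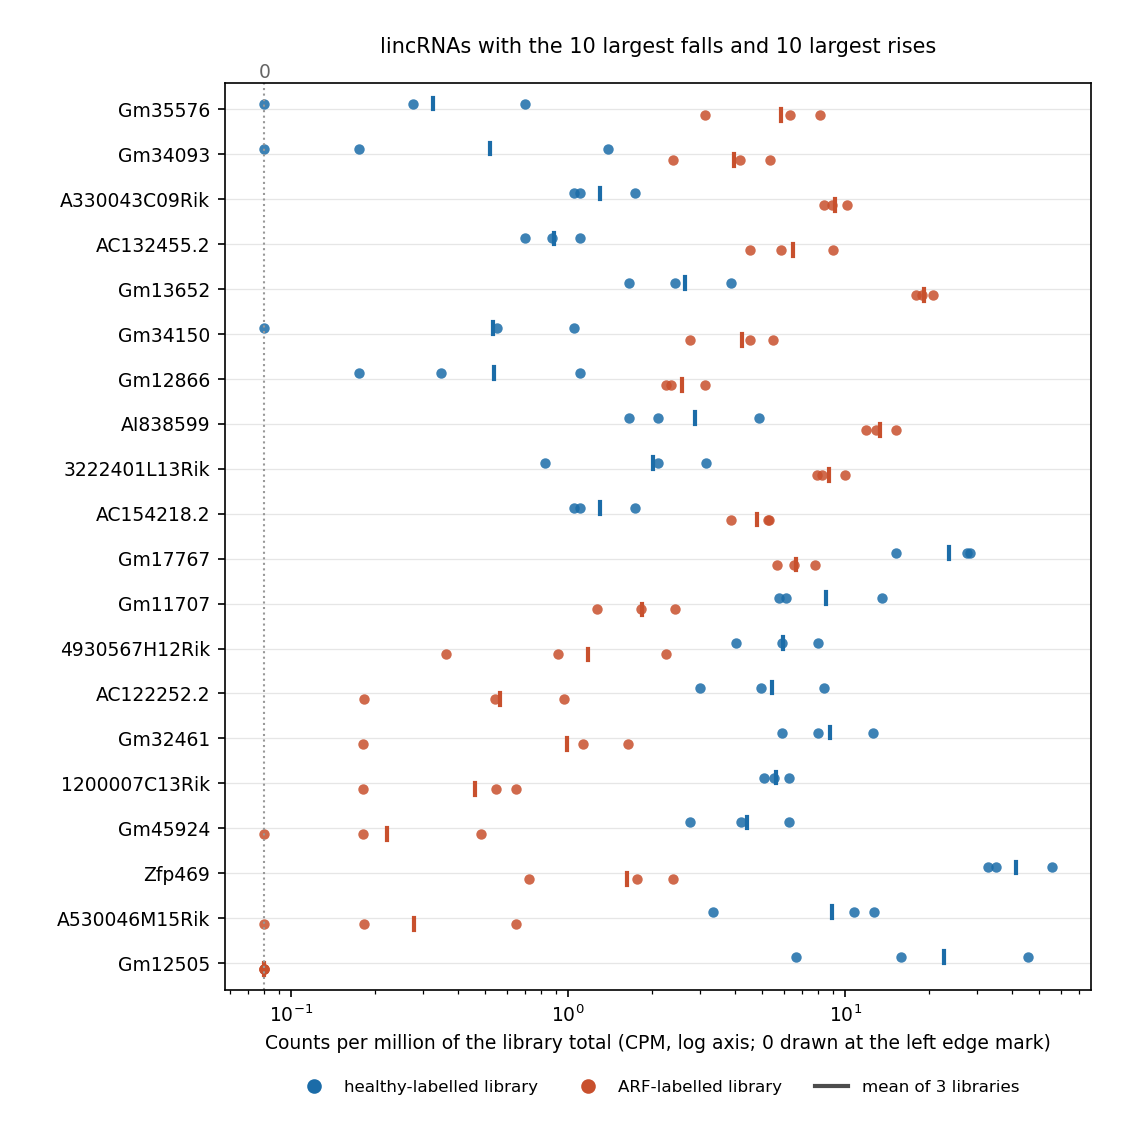
CPM on a log axis (x) of the 10 lincRNAs with the largest rises (top) and the 10 with the largest falls (bottom), with 1 point per library, healthy and acute renal failure (ARF) in separate colours, a bar at each mean, and 0 drawn at the dotted line. Gm12505 is at 0 in all 3 ARF libraries, and the ARF points of Gm13652 and A330043C09Rik lie close together above the healthy ones.

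Of the 7 expressed lincRNAs whose GENCODE name is on lists of known RNAs, 3 were lower (Snhg12, Lncpint and Pvt1) and 0 higher. The shares over all genes tested were 24.9% and 25.1%. Lists were matched by name, so 1700020I14Rik (Cyrano), listed as Oip5os1, is not among the 7. Mirt1, another listed lincRNA that was lower, had too few counts to be among the 7. Of the small nucleolar RNA hosts, whose introns release these small RNAs, 5 were read and tested in all, of any long non-coding type. Of these, 0 were higher and 2 lower. Snhg12 had 32.6, 47.3 and 50.4 CPM in healthy libraries against 23.5, 16.7 and 20.0 CPM, with no overlap, and a log2 fold change of -1.28 (SE 0.20, adjusted p = 0.000937). Its row also covers exons of small nucleolar RNAs. Snhg1, a processed transcript and not a lincRNA in GENCODE, had a log2 fold change of -1.20 (SE 0.14, adjusted p = 0.000236), while Snhg18 (0.37), Snhg14 (-0.84) and Rian (-1.45) did not pass the test. Of 3 RNAs linked to stress or p53, Lncpint, Pvt1 and Malat1, 2 were lower. Lncpint, a p53-induced RNA that interacts with the Polycomb complex PRC2, had 10.3, 16.0 and 13.5 CPM in healthy libraries and 5.13, 2.53 and 5.17 CPM in acute renal failure. Pvt1, the neighbour of Myc, had 6.65, 5.92 and 7.71 CPM against 2.75, 1.81 and 3.55 CPM. Their log2 fold changes were -1.78 (SE 0.32, adjusted p = 0.00192) and -1.49 (SE 0.32, adjusted p = 0.00490). Lncpint and Pvt1 had no overlap between the groups.

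The list of nuclear and chromatin-associated RNAs, which also holds the cytoplasmic 2900097C17Rik, gave 1 higher and 1 lower of 6 matched by name and tested. These were Kcnq1ot1, an antisense RNA of the imprinted Kcnq1 domain (1.25, adjusted p = 0.000248), and Pvt1. Ftx, a regulator of Xist that also hosts microRNAs, had 5.78, 3.83 and 9.64 CPM in healthy libraries and 11.4, 7.78 and 11.3 CPM in acute renal failure. Those ranges overlapped, and the log2 fold change of 0.47 (SE 0.34, adjusted p = 0.276) did not pass. Of 4 imprinted non-coding RNAs tested, Kcnq1ot1 was the 1 called. Of 4 RNAs tested from the list of microRNA hosts, Mir99ahg was higher (2.13, adjusted p = 0.0134), and Lncpint and Mirt1 were lower. Mirt1 had -2.69 (adjusted p = 0.0278) and was below the expression limit. A place on this list is no evidence that an RNA hosts a microRNA. A search of the same strand within 2000 bases of Lncpint found no hairpin, and Mirt1 was not searched. H19, Meg3, Mir670hg and Hotair were read but not tested, and Hotair had 0 counts in every library. These lists were drawn up with earlier results of these libraries known, and their counts are no independent evidence of a direction.

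Next to Lncpint lies Gm27019 (chr6:31063092-31063495, minus strand), named here after its values were seen. Its hairpin neighbours downstream on the same strand are Mir29b-1 (chr6:31063023-31063093) and Mir29a (chr6:31062660-31062747). Gm27019 had 24.3, 22.6 and 40.5 CPM in healthy libraries and 13.7, 11.2 and 16.8 CPM in acute renal failure. Every acute renal failure library lay below every healthy one, with a log2 fold change of -1.24 (SE 0.25, adjusted p = 0.00406). The counted exon bases end 37 bases before the hairpin of Mir29b-1 and 383 bases before that of Mir29a. Of the row's bases, 4.95% lay on Gm27019. The only other annotated exon the row touches is that of the pseudogene Gm13835 (231 bases), so the row covers no annotated microRNA exon. The mature strands of these hairpins that share a seed are shown from RefSeq (GRCm38.p6), since they are the known products of this locus, with the seed (bases 2 to 8) in capitals.
mmu-miR-29a-3p: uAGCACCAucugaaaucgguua
mmu-miR-29b-3p: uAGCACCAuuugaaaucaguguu
Both have the seed AGCACCA. The family is known to repress collagen and other matrix genes. The level of the mature microRNAs was not measured in these libraries.

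The nearest protein-coding gene moved the same way in the 8 pairs where both it and the lincRNA were called. Genes other than the nearest moved in either direction. This split is by rank and not by distance. Zfpm1, not the nearest gene, lies 9491 bases from Zfp469, while Ankrd46, a nearest gene, lies 87496 bases from Gm34093. Of the 84 lincRNAs, 78 had a protein-coding gene within 100 kb, the nearest was read for 26, and 23 pairs were tested. In 8 pairs both were called, 8 in the same direction and 0 in opposite directions. In 3 the lincRNA alone was called, in 4 the neighbour alone, and in 8 neither. Of all genes tested, 50.0% were called. How often neighbouring genes of any type moved the same way was not computed, so these counts are not read as a result about lincRNAs. Across the 23 pairs the log2 fold changes had a Pearson r of 0.42 and a Spearman rho of 0.62, given as a description, since pairs share libraries and some rows of a lincRNA run into its neighbour. Among tested protein-coding genes within 100 kb other than the nearest, 15 pairs had both called, 10 in the same direction and 5 in opposite directions. Those 5, named after their values were seen, were Neurl1b near AC122252.2, Zfpm1 near Zfp469, Fbxo10 near Gm12678, Zfp948 near 9330136K24Rik and Gpr85 near 1110019D14Rik.

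AC122252.2 lies 2390 bases from Dusp1, an immediate early gene that encodes a phosphatase of MAP kinases, on the same strand. AC122252.2 had 2.98, 8.35 and 4.96 CPM in healthy libraries and 0.183, 0.543 and 0.969 CPM in acute renal failure. Dusp1 had 304, 365 and 514 CPM against 72.4, 43.8 and 48.5 CPM, with a log2 fold change of -3.02 (SE 0.25, adjusted p = 4.55e-05) beside -3.28 for the lincRNA. In both genes the groups were far apart. Neurl1b, 21211 bases from AC122252.2 and thus farther than Dusp1, was higher (2.67, SE 0.15, adjusted p = 9.11e-06). 4930567H12Rik (4.03, 5.92 and 7.99 CPM against 0.916, 0.362 and 2.26 CPM) lies 14824 bases from Sipa1l2 on the other strand. Sipa1l2, a regulator of the GTPase Rap, had 142, 182 and 154 CPM against 69.6, 60.3 and 71.2 CPM and a log2 fold change of -1.42 (SE 0.12, adjusted p = 4.65e-05). Part of the lincRNA's main row lies in the body of Sipa1l2, so these values can share reads.

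Gm10451, named after its values were seen, lies 5005 bases from Ppp1r36, a phosphatase regulatory subunit gene. It had 12.6, 14.3 and 19.6 CPM in healthy libraries and 48.9, 50.1 and 23.6 CPM in acute renal failure, where replicate 3 lay nearer the healthy level. Its log2 fold change was 1.24 (SE 0.31, adjusted p = 0.0108), and that of Ppp1r36 was 2.68 (SE 0.36, adjusted p = 0.000434). Ankrd46, 87496 bases from Gm34093, rose from 308, 230 and 272 CPM to 767, 552 and 548 CPM, with a log2 fold change of 1.03 (SE 0.17, adjusted p = 0.00158). Smaller differences of neighbours in the direction of the lincRNA were found for Rad23b beside Gm12505 (-0.40, adjusted p = 0.0143) and Atp6v1c1 beside Gm45924 (-0.45, adjusted p = 0.00950). Zcchc7 beside Gm12678 (-0.49, adjusted p = 0.00456) and Nacc2 beside Tmem250-ps (0.42, adjusted p = 0.0491) were of the same kind. The Nacc2 call was lost when any 1 library other than acute renal failure replicate 2 was left out (adjusted p from 0.0791 to 0.163), and that of Rad23b without acute renal failure replicate 1 (0.0604). Sema5a, 148 bases from Snhg18, was higher (0.69, adjusted p = 0.00527), while Rnf19a beside Gm34150 did not pass the test (0.21, adjusted p = 0.306).

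**Figure D4:**
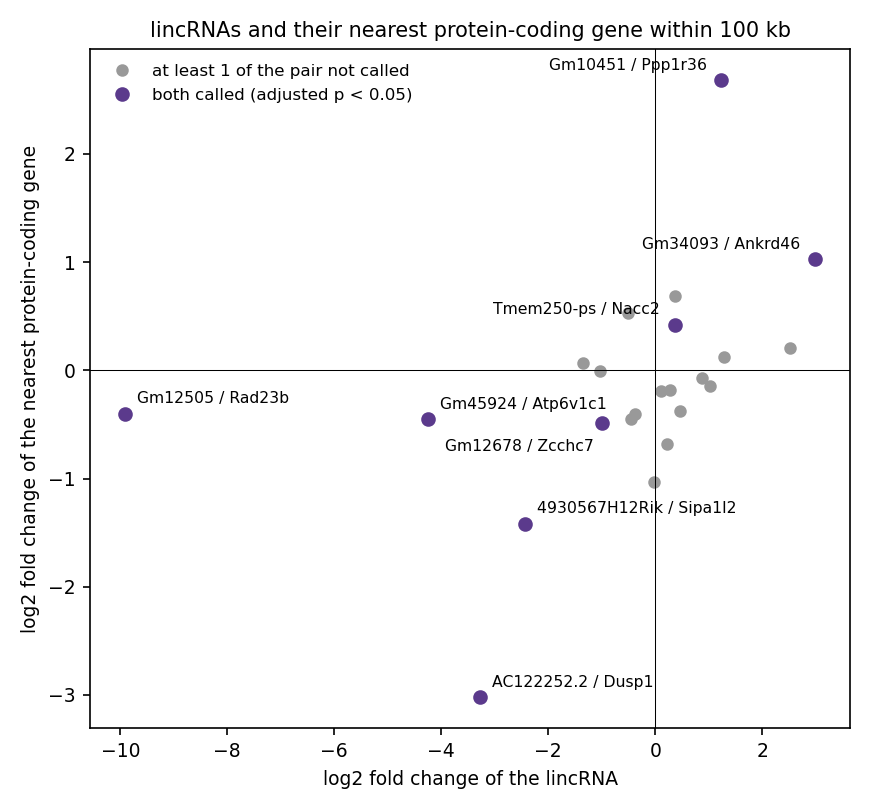
Log2 fold change of a lincRNA (x) against that of its nearest protein-coding gene within 100 kb (y), with 1 point for each of 23 pairs and names where both were called. The 8 named pairs lie at the lower left and upper right of the zero lines, where both genes of a pair have the same direction.

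The remaining called lincRNAs are outside the rule for naming and are given after their values were seen. Lower were Gm26835 (-1.34, adjusted p = 0.000371) and Carmn (-1.28, adjusted p = 0.0182), the latter a smooth muscle and cardiac RNA beside the miR-143 and miR-145 genes. Carmn was read through 148 exon bases, 2.52% of its row, which also touches 47 exon bases of the lincRNA Bvht. Whether the fall is that of Carmn itself was not tested. Gm26835 had 26.3, 27.1 and 28.1 CPM against 10.8, 10.5 and 14.9 CPM, with little spread, although its row runs through Hivep2 on the other strand. Higher were 1110019D14Rik (1.29, adjusted p = 0.00201), Gm47469 (1.48, 0.0109), 4632428C04Rik (1.5, 0.0220), D130017N08Rik (1.52, 0.0234) and 9330136K24Rik (0.98, 0.0193), the last 4 with adjusted p after the log2 fold change. 1110019D14Rik, read over 1496 of 1499 exon bases in a row of its own name, had 7.01, 7.66 and 8.81 CPM against 16.1, 23.3 and 24.9 CPM. Gm29650, a lincRNA on chromosome Y, had counts in all 6 libraries at 3.31 to 6.96 CPM, with a log2 fold change of -0.01 (SE 0.33, adjusted p = 0.977).

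Of the 36 calls, 27 held in each of the 6 fits that left out 1 library. Beside Rmrp, Tmem250-ps, 4932412D23Rik, Gm12866 and Gm34093, 4 others lost the call in at least 1 such fit. Carmn lost it without healthy replicate 3 (adjusted p = 0.0695) and without acute renal failure replicate 1 or 2 (0.0559 and 0.0658). 9330136K24Rik lost it without healthy replicate 1 or 3 and without acute renal failure replicate 1 or 2 (0.0535 to 0.0678). D130017N08Rik lost it without healthy replicate 3 and without acute renal failure replicate 2 or 3 (0.0613 to 0.0723). 4632428C04Rik lost it without healthy replicate 2 or 3 and without acute renal failure replicate 1 or 2 (0.0518 to 0.0762), and reached a log2 fold change of 2.27 without healthy replicate 1.

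Just inside the expression limit lay Gm42889, with 20, 9 and 6 counts in healthy libraries and 8, 14 and 12 in acute renal failure, and B230317F23Rik, with 4, 5 and 6 against 16, 16 and 12. Just outside it, with 10 counts in 2 libraries, lay Gm14221, with 17, 6 and 16 counts against 6, 2 and 2, and Mirt1, with 12, 14 and 7 against 0, 7 and 1.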

How the data were processed

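Kidney RNA was sequenced in 3 healthy and 3 acute renal failure libraries (TruSeq RNA kit, per the labels' protocols), grouped by the diagnosis in the labels. The authors deposited counts per gene row and library. Per the file headers, featureCounts 2.0.1 made these counts from read pairs with both ends aligned, adding the exons of each gene name and ignoring strand. Bowtie 0.12.2 and the mm9 build appear in the submitters' processing notes. The aligner and build behind the deposited counts are not stated there or in the headers, and the series-wide table was not used.

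Row intervals were intersected with GENCODE M21 basic exons (GRCm38) with bedtools 2.31.1 in Python 3.11.15 (pandas 2.3.3). The exons used were those of coding genes and of long non-coding RNAs, without pseudogenes, small RNAs and other types, whose exons a row can also cover. A row was assigned where 1 gene held 0.9 or more of these exon bases it overlapped, and no fewer than 25 bases, which placed 12401 of 53546 rows and 63.0% of counts on 9520 genes. Counts were fitted with edgeR 4.0.16 in R 4.3.3 (quasi-likelihood test, TMM, filterByExpr, group as the only term, two-sided, Benjamini-Hochberg over 5246 genes, threshold 0.05), tested on simulated data first. CPM is relative to the total over all rows, errors are SD over n = 3 libraries, and SEs were derived from the fold change and the F statistic. The precision of low genes is limited by totals of 2873370 to 6191479 counts per library. Alternatives were DESeq2 1.42.0, other scalings, filters and row rules, a replicate block and leaving out each library.

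Named were the 10 largest rises and 10 largest falls among called lincRNAs whose groups do not overlap, and the 10 highest by mean CPM. Also named was every lincRNA whose GENCODE name is on a list of known RNAs. The nearest protein-coding gene of all these was named where read. The members and lists were chosen with earlier results of these data known. Sequences were copied from RefSeq tables (GRCm38.p6) and GENCODE M21 transcripts.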

Additional observations from a re-analysis of the deposited data

How the results depend on the processing

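The counts of 18 higher and 18 lower lincRNAs became 17 and 20 with DESeq2 size factors in edgeR, 17 and 19 in DESeq2, 20 and 17 with scaling by total count, and 13 to 17 and 16 to 20 when 1 library was left out. Total count scaling moved the all-gene median of the log2 fold change from 0.01 to 0.19 and the share of higher calls over all genes from 50.3% to 63.3% (1749 higher, 1013 lower), so changes are given relative to TMM. Same-numbered libraries of the groups did not deviate together (correlations -0.07, -0.22 and -0.29); with the replicate block, 15 lincRNAs were higher and 18 lower, and 1135 and 1153 of all genes; Tmem250-ps (adjusted p = 0.0586), D130017N08Rik (0.0580) and 4932412D23Rik (0.103) were then not called. Rows with at least 0.5 of their bases on the gene's exons, chosen after seeing the data, gave 4 higher and 7 lower of 17 lincRNAs, 268 and 262 of 917 genes, and 4 and 6 of 23 other long non-coding RNAs. Rows on no other annotated exon or coding gene body, also chosen after seeing the data, gave 13 higher and 8 lower of 34 lincRNAs, 984 and 972 of 3767 genes, and 6 and 6 of 28 other long non-coding RNAs. Both rules leave fewer genes to test. The sign turned for values near 0 that passed no test. Scaling by total count gave 0.013 for Gm28875, 0.10 for Gm41442 and 0.17 for 2900097C17Rik. 2900097C17Rik also came to 0.046 without a filter beyond 1 count, 0.0013 with rows on exons of 1 gene only and 0.0019 with the replicate block. Leaving out 1 library gave 2900097C17Rik between -0.16 and 0.10 and Gm28875 between -0.51 and 0.20; the cause was not tested. Members with under 10 counts in a library have SEs up to 1.44 on the log2 scale, which limits the smallest difference that could be called.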
